A study of Mus musculus with 6 samples.

Results

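Metallothioneins and zinc transport were followed through 6 genes, *Mt1*, *Mt2*, *Mtf1*, *Slc39a4*, *Slc39a5* and *Slc30a1*, of the 19178 genes in the count tables. The genes were listed by name, and all 6 had counts in each of the 6 tables. The list was chosen by the *Mt1* level measured in these same knockout and flox cells. That difference is therefore given as a description, with no test. The other members were read from a test across all genes.

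The cells came from small intestinal crypts of 10-week C57BL6 mice and were sequenced by Drop-seq, in which droplets tag the 3′ ends of each cell's transcripts. Crypts had been freed with EDTA and dissociated with trypsin. The knockout mice carried an epithelial deletion of *Ptger4*, the gene of a prostaglandin E2 receptor, and the flox mice carried the floxed gene. The mice and cells received no treatment, and the Cre driver is not given in the sources used here. Each genotype had 3 droplet collections. From the title codes, collections 1 and 2 were read as biological replicate 1 and collection 3 as biological replicate 2.

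Zinc enters cells through ZIP proteins, encoded by *Slc39a* genes, and leaves the cytosol through ZnT proteins, encoded by *Slc30a* genes. In the small intestine ZIP4 (*Slc39a4*) takes zinc up from the lumen, ZIP5 (*Slc39a5*) sits on the opposite, basolateral face of epithelial cells, and ZnT1 (*Slc30a1*) exports zinc across that face. Metallothioneins 1 and 2 are small cysteine-rich proteins that bind zinc and copper. MTF-1, encoded by *Mtf1*, is a zinc-sensing transcription factor that binds metal response elements in the promoters of *Mt1*, *Mt2* and *Slc30a1*.

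The metallothionein genes lie close together on chromosome 8 (GRCm38, GENCODE vM21). *Mt2* spans 94172664 to 94173568 and *Mt1* spans 94179082 to 94180327, both on the plus strand, with 5514 bases from the end of *Mt2* to the start of *Mt1*. The longest run of bases shared by their transcripts was 20, and 10 within the last 150 bases, the end that a 3′ tag reads. An antisense gene, *Gm45774*, is annotated from 94170748 to 94173412 on the minus strand, which overlaps *Mt2* and ends before its 3′ end at 94173568. Whether the counting used strand is not given in the sources used here, so reads within the overlap would be open to mixing. How many reads lie there was not examined. *Slc30a1* lies on chromosome 1 (191906767 to 191913247), *Mtf1* on chromosome 4 (124802104 to 124849800), *Slc39a5* on chromosome 10 (128395931 to 128401229, minus strand) and *Slc39a4* on chromosome 15 (76612383 to 76617384, minus strand).

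The promoters of the known MTF-1 targets are shown because they are what *Mt1*, *Mt2* and *Slc30a1* share. The sequences are from RefSeq (GRCm38.p6), from 250 bases before the transcription start to 30 after it, on the plus strand, 5′ to 3′. They cover chr8:94178839-94179118 for *Mt1*, chr8:94172368-94172647 for *Mt2* and chr1:191906531-191906810 for *Slc30a1*. Capitals mark the metal response element cores TGCACNC and TGCGCNC, searched on both strands.
Mt1: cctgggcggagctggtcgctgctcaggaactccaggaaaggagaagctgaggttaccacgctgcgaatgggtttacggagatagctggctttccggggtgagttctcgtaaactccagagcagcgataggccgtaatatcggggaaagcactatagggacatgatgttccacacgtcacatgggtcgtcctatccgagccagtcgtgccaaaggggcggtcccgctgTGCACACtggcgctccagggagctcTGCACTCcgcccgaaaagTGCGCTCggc
Mt2: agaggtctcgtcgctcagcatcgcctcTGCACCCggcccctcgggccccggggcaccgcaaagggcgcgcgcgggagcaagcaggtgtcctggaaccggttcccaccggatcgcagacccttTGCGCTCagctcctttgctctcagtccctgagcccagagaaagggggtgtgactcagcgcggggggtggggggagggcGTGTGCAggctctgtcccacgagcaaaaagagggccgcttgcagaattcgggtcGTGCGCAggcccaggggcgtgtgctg
Slc30a1: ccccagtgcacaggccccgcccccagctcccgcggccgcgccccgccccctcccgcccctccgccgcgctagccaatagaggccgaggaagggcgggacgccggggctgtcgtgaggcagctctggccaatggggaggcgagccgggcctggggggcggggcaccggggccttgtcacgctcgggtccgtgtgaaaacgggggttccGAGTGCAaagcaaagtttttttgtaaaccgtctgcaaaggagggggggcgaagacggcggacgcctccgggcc

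The search covered windows from 250 bases before to 50 after each start. It found 3 cores in the *Mt1* window, all on the plus strand, and 4 in the *Mt2* window, 2 on each strand. The *Slc30a1* window held 2, both on the minus strand and 1 of them beyond the stretch shown. Of the *Slc39a5* windows, of which RefSeq gives 2, 1 held 1 core and the other held 0, and the *Mtf1* window held 0. Of all 32851 windows of this length, 25.7% held at least 1 core, 1.97% at least 3 and 0.517% at least 4. A match is a description of the letters only. The promoter of *Slc39a4* is named only.

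Of 13191 barcodes, 4890 passed a minimum of 300 genes and a maximum of 25% mitochondrial counts, and 27 of these held over 20000 counts. The tables held 1228337 to 3146909 counts per collection. Kept cells had a median of 1070 to 1472 counts. Counts of *Xist*, transcribed from the inactive X chromosome, were at most 12 in collections 1 and 2 of either genotype, and 1880 in knockout collection 3 and 1674 in flox collection 3. Some barcodes occurred in more than 1 collection. Knockout 1, flox 1 and flox 2 shared 21 to 28 barcodes in pairs, as did knockout 2, knockout 3 and flox 3 with 9 to 18, whereas pairs across these sets shared 0 to 2. The first trio is called set 1 and the second set 2, and 135 kept barcodes occurred in 2 or more collections. Within set 1 there was 1 knockout collection and within set 2 there was 1 flox collection. *Ptger4* itself had 17.4, 19.1 and 24.5 CPM (counts scaled to the total of the cells taken) in knockout and 11.9, 13.6 and 15.1 CPM in flox. A 3′ tag outside the deleted part checks nothing, and the deleted part is not given in the sources used here, so these counts do not check the genotypes, which are as labelled.

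Clustering that left the 6 genes out of the variable genes gave 14 clusters. Fixed marker lists named 9 classes. Among them, with some of their top 10 genes, were stem cell-like (1137 cells, *Olfm4*), cycling-like (579, *Birc5*, *Ube2c*), enterocyte-like (535, *Apoa1*, *Fabp1*) and goblet-like cells (698, *Zg16*, *Muc2*). The 2 stem cell-like clusters had 5 and 6 of 18 stem markers enriched. Their median depths were 1052 and 820 counts, against 4151 in cycling-like cells. At Leiden resolution 0.6 a cluster with *Lgr5* among its top 10 genes had 10 of 18 stem and 16 of 20 cycling markers enriched. The stem cell-like and cycling-like classes were thus not cleanly apart. Crypt stem cells feed dividing progenitors, which mature into absorptive enterocytes or secretory cells such as mucus-producing goblet cells. T or NK-like and B or plasma-like cells, 385 in all, are called immune cells. Clusters 1 (657 cells, led by *Akr1c19*, *Reg3g* and *Car4*), 6 (522, led by *Gm26917* and *Gm24270*) and 8 (192, led by *Ceacam20* and *Slc6a20a*) stayed unnamed. Classes were built from these same cells, so differences between classes are given with no test.

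*Mt1* was several-fold higher in knockout than in flox cells. In all kept cells it reached 1199, 1167 and 1420 CPM in the knockout collections, against 260, 248 and 311 CPM in the flox collections. The lowest knockout value lay far above the highest flox value. The means were 1262 ± 138 and 273 ± 33.3 CPM (SD, n = 3 collections each), a ratio of 4.63, and the log2 fold change of sums per biological replicate was 2.23 (SE 0.20, n = 2 each). It was 2.31 within set 1 and 2.08 within set 2.

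For *Mt2* the genotypes overlapped over all cells. It had 40.2, 45.5 and 107 CPM in knockout and 42.4, 45.7 and 50.9 CPM in flox. Knockout collections 1 and 2 lay within or below the flox range and knockout collection 3 lay above it. The log2 fold change was 0.69 (SE 0.31) and did not pass (edgeR quasi-likelihood test, Benjamini-Hochberg adjusted p = 0.9996, n = 2 sums each). Without knockout collection 3 it was -0.07, and it was -0.05 within set 1 and 0.63 within set 2.

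The importers and the exporter showed no shift that passed the test. *Slc39a4* had 65.0, 45.5 and 39.0 CPM in knockout and 78.5, 77.8 and 51.8 CPM in flox. Knockout collection 1 lay above flox collection 3, so the groups overlapped. Its log2 fold change was -0.42 (SE 0.25), and it was below 0 under each of the 21 alternatives run, from -0.74 to -0.10. *Slc39a5* had 69.0, 68.3 and 73.0 CPM in knockout and 68.9, 46.7 and 71.2 CPM in flox, where collection 2 was the low one. Its log2 fold change was 0.12 (SE 0.19), and it was above 0 under each of the same 21 alternatives, from 0.01 to 0.31. The alternatives refit these same collections, so a kept sign is no independent evidence for either importer. *Slc30a1* had 13.4, 16.9 and 25.3 CPM in knockout and 25.5, 19.5 and 21.2 CPM in flox. The groups overlapped, and the log2 fold change was -0.15 (SE 0.28). It was -0.70 within set 1 and 0.04 within set 2.

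The transcription factor gene itself, *Mtf1*, had 48.2, 27.9 and 46.8 CPM in knockout and 36.8, 39.9 and 42.4 CPM in flox. The knockout values lay on both sides of the flox values, with a log2 fold change of 0.13 (SE 0.22). Adjusted p was 0.9996 for each of *Slc39a4*, *Slc39a5*, *Slc30a1* and *Mtf1* (edgeR). Of the 5 members other than *Mt1*, 0 passed in all kept cells, where 0.00947% of 10555 genes tested did. That share is *Mt1* alone. At an unadjusted p under 0.05, 1 of the 5 was found, *Mt2*, beside 235 (2.23%) of all genes, and DESeq2 also passed 0 of the 5. Of the 6 members, *Mt1* alone had all knockout collections above all flox collections, which held for 2.47% of genes, and 0 had all of them below, which held for 4.54%.

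**Figure D1:**
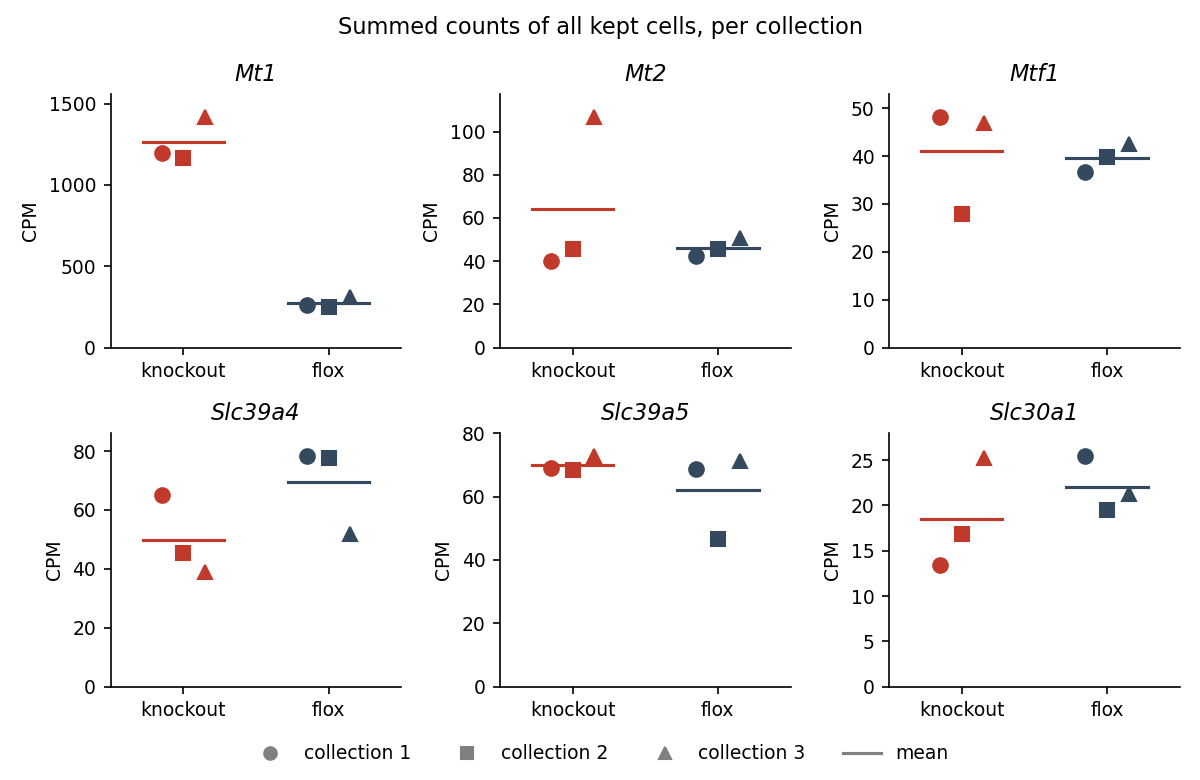
CPM of each gene in all kept cells (vertical axis, from 0), for the 3 knockout and 3 flox collections (points, by collection number) with their mean (line). *Mt1* alone separates the genotypes, and the knockout mean of *Mt2* rests on collection 3 at 107 CPM.

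*Mt1* was highest in enterocyte-like cells of both genotypes, and it was higher in knockout in each epithelial class with at least 10 cells in both. Enterocyte-like cells had 2435, 2503 and 3364 CPM in knockout and 547, 555 and 897 CPM in flox. Stem cell-like cells had 905, 938 and 974 CPM in knockout and 225, 260 and 203 CPM in flox. The knockout stem cell-like cells thus stood above the flox enterocyte-like cells, by a narrow margin in flox collection 3, at 897 CPM. Cycling-like cells had 799, 958 and 1174 CPM in knockout, against 245, 298 and 260 CPM in flox, and goblet-like cells 902, 943 and 1042 CPM in knockout and 223, 281 and 148 CPM in flox. Cluster 1 had 1318, 1455 and 2085 CPM in knockout and 229, 150 and 357 CPM in flox. In each of these the genotypes did not overlap.

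By mean level in knockout, enterocyte-like cells (2767 ± 518 CPM, SD, n = 3) came first and cluster 1 (1619 ± 409) second. Cluster 8 (1249 ± 182), enteroendocrine-like (1011 ± 149), cycling-like (977 ± 188), goblet-like (962 ± 71.9) and stem cell-like cells (939 ± 34.7) followed, and neighbours among these overlapped. Cluster 6 was lower at 592 ± 116 CPM. In flox, enterocyte-like cells (667 ± 200 CPM, n = 3) again came first, and cycling-like (268 ± 27.5), cluster 1 (245 ± 104), stem cell-like (230 ± 28.6) and goblet-like cells (217 ± 66.9) could not be ordered beyond their spread. Immune cells were lowest, with 174, 169 and 48.3 CPM in knockout and 8.99, 0 and 52.2 CPM in flox, from 20 and 3 counts.

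The fitted *Mt1* log2 fold change was 2.05 (SE 0.24) in enterocyte-like, 2.05 (SE 0.23) in cycling-like, 2.12 (SE 0.24) in stem cell-like and 2.33 (SE 0.28) in goblet-like cells. It was 2.73 (SE 0.28) in cluster 1, which was added to the classes tested after its values were seen. Within set 1 and set 2 it was 2.21 and 1.72 in enterocyte-like cells and 1.92 and 2.25 in stem cell-like cells. The differences between classes in fold change were not tested.

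All 6 genes were higher in enterocyte-like than in stem cell-like cells, in each of the 6 collections. The log2 ratio of the levels (prior count 2) averaged 2.21 ± 0.57 for *Slc30a1*, 1.99 ± 1.14 for *Mt2*, 1.53 ± 0.63 for *Slc39a4*, 1.503 ± 0.376 for *Mt1*, 1.43 ± 0.75 for *Slc39a5* and 1.20 ± 0.55 for *Mtf1* (SD, n = 6 collections). For *Mt1* the ratio was 1.54 ± 0.21 in knockout and 1.47 ± 0.55 in flox (n = 3 each), a difference of 0.064 that was smaller than the spread between collections.

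*Slc30a1*, the exporter, was the most concentrated of the 6 in enterocyte-like cells. They held 12.7% of all kept counts and 50.4% of the 246 *Slc30a1* counts, against 32.9% of *Mt2* and 29.5% of *Mt1* counts. Its enterocyte-like level was 48.2, 73.1 and 125 CPM in knockout and 86.1, 115 and 73.7 CPM in flox, where the genotypes overlapped. In goblet-like cells it had 0, 15.5 and 1.95 CPM in knockout and 11.1, 0 and 4.10 CPM in flox. Its mean there was below that in stem cell-like, cycling-like and enterocyte-like cells and cluster 1, in both genotypes.

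*Slc39a4*, the luminal importer, was also high in cluster 1. Enterocyte-like cells had 137, 79.2 and 48.5 CPM in knockout, against 153, 168 and 87.1 CPM in flox, and cluster 1 had 108.5, 62.2 and 13.5 CPM in knockout and 109, 131 and 70.5 CPM in flox. In both, knockout collection 3 was the lowest of the 6 and the genotypes overlapped. The log2 fold change was -0.51 (SE 0.36) in enterocyte-like cells and -0.65 (SE 0.44) in cluster 1, with adjusted p = 0.9992 and 0.9993 (edgeR). In cluster 1 it ran between -2.85 and -0.04 over the alternatives. It passed there in 1 of them, without knockout biological replicate 1 (-2.85, adjusted p = 0.0230, edgeR), where the single remaining knockout sum is taken to vary like the others. Cycling-like cells had 53.0, 59.1 and 44.7 CPM in knockout and 75.6, 69.1 and 43.4 CPM in flox.

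*Slc39a5*, the basolateral importer, had 161, 158 and 128 CPM in knockout enterocyte-like cells and 130.5, 41.9 and 124 CPM in flox enterocyte-like cells. The difference on the log2 scale was 0.35 (SE 0.29; adjusted p = 0.9992, edgeR), and the flox value of 41.9 rests on collection 2, with 43 such cells. In stem cell-like cells it had 31.2, 60.8 and 31.8 CPM in knockout and 19.4, 30.6 and 72.6 CPM in flox, which overlapped. The small cluster 8 had 137, 188 and 173 CPM in knockout, from 3, 5 and 10 counts, and 285 and 27.6 CPM in flox collections 1 and 3, from 9 and 1 counts. Its mean was thus above that of enterocyte-like cells in both genotypes, on few counts. *Mtf1* had the smallest of the 6 class ratios, with 60.3, 54.8 and 76.2 CPM in knockout and 58.3, 83.8 and 70.3 CPM in flox enterocyte-like cells. Its stem cell-like level was 23.4, 8.69 and 52.9 CPM in knockout and 15.5, 22.9 and 36.3 CPM in flox. Immune cells also had *Mtf1* counts, at 31.6, 48.4 and 0 CPM in knockout and 27.0, 41.2 and 52.2 CPM in flox.

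**Figure D2:**
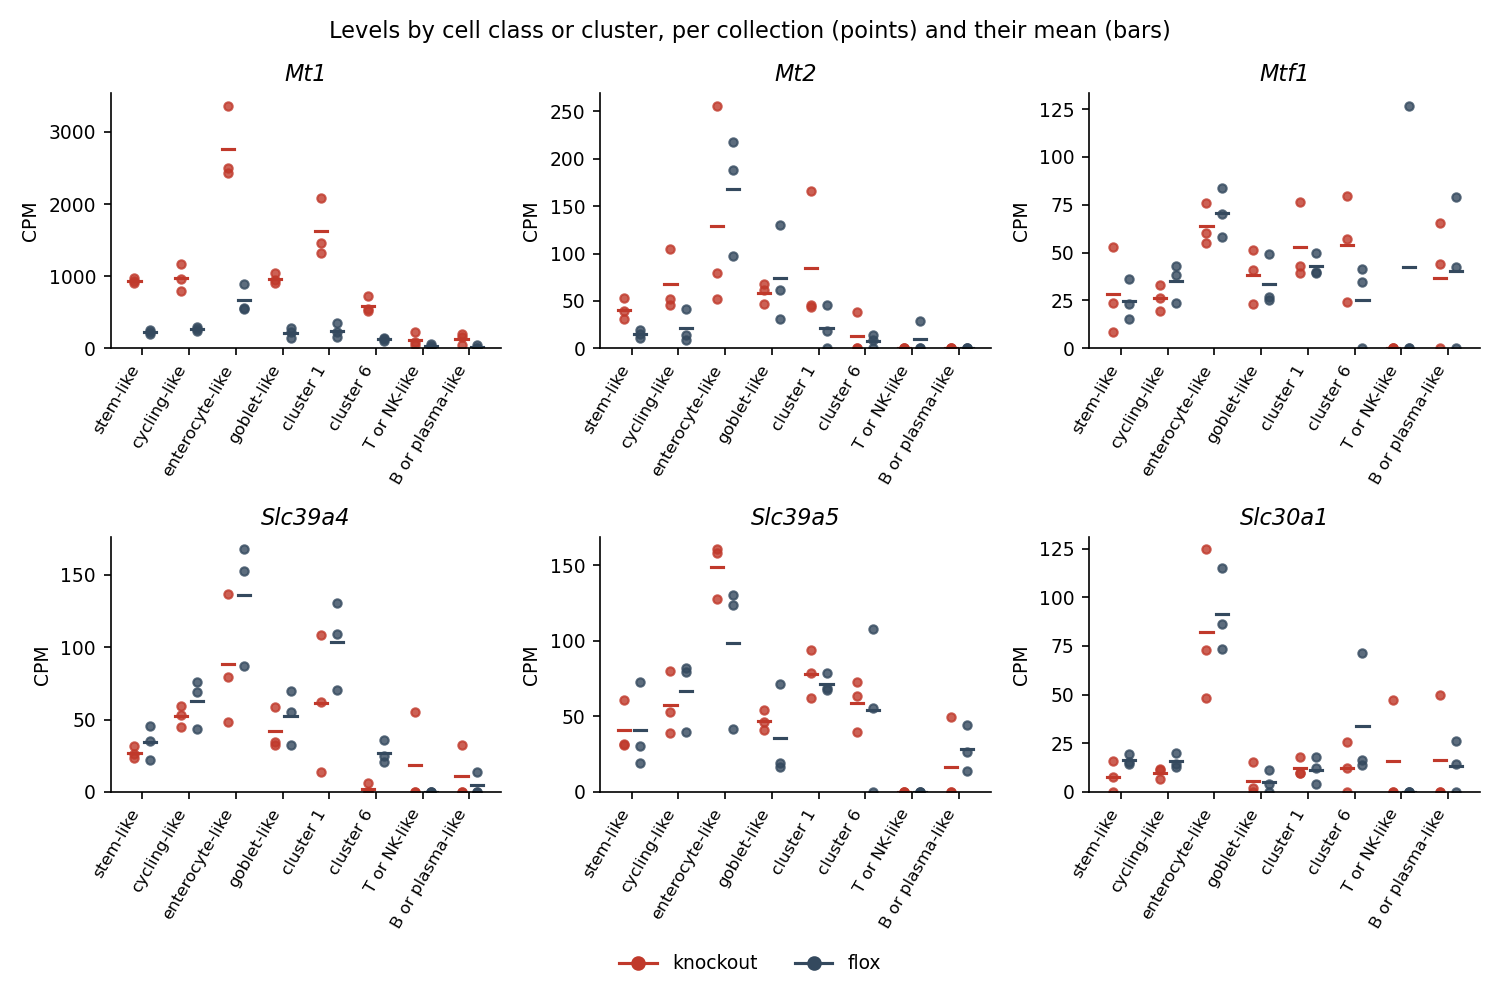
CPM of each gene (vertical axis, from 0) by cell class or unnamed cluster, for knockout (left) and flox (right) collections with at least 10 cells (points) and their mean (bars). All knockout values of *Mt1* lie above all flox values in each epithelial class or cluster shown, and among the classes and clusters shown the transporters have their highest means in enterocyte-like cells of both genotypes.

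In stem cell-like and cycling-like cells all knockout values of *Mt2* lay above all flox values, and in enterocyte-like and goblet-like cells the genotypes overlapped. Stem cell-like cells had 39.0, 30.4 and 52.9 CPM in knockout, from 10, 7 and 10 counts, and 19.4, 15.3 and 10.9 CPM in flox, from 5, 2 and 3 counts. Cycling-like cells had 45.5, 52.5 and 105 CPM in knockout and 41.4, 8.64 and 14.5 CPM in flox. Such a lack of overlap was shared by 3.39% of genes tested in stem cell-like cells and 2.6% in cycling-like cells. Enterocyte-like cells had 52.2, 79.2 and 256 CPM in knockout and 97.2, 189 and 218 CPM in flox, where knockout held both the lowest and the highest value. Goblet-like cells had 46.5, 61.8 and 68.2 CPM in knockout and 61.3, 130 and 30.7 CPM in flox.

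The *Mt2* log2 fold change was 1.45 (SE 0.59, adjusted p = 0.9974) in stem cell-like, 1.49 (SE 0.40, adjusted p = 0.653) in cycling-like and 2.10 (SE 0.60, adjusted p = 0.974) in cluster 1 (edgeR). In enterocyte-like cells it was -0.06 (SE 0.43) and in goblet-like cells 0.08 (SE 0.43), each with adjusted p = 0.9992 (edgeR). None passed, and in cycling-like cells and cluster 1 the call turned on the fit: with no filter on low counts *Mt2* passed in both (adjusted p = 0.0263 and 0.0375, edgeR). Over all alternatives the adjusted p went down to 0.00204 in cycling-like cells and to 1.77e-05 in cluster 1, and up to 1.0 in both. Both of the lowest values are without knockout biological replicate 1, where the single remaining knockout sum is taken to vary like the others. Without knockout collection 3 the log2 fold change was 0.84 in cycling-like cells and 1.07 in cluster 1. It was 0.53 within set 1 and 2.54 within set 2 in cycling-like cells. The enterocyte-like over stem cell-like log2 ratio of *Mt2* was 1.21 ± 0.84 in knockout and 2.77 ± 0.86 in flox (n = 3 each). This contrast was chosen after its values were seen and was not tested, and the highest knockout ratio (2.05) lay above the lowest flox ratio (1.92).

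Of the members other than *Mt1*, 0 passed in stem cell-like (0.0418% of genes tested passed), cycling-like (0.0136%), enterocyte-like (0.0212%) or goblet-like cells (0.0163%) or in cluster 1 (0.02%), with edgeR. At an unadjusted p under 0.05, 1 member, *Mt2*, was found in stem cell-like cells (3.83% of all genes tested there), in cycling-like cells (2.12%) and in cluster 1 (3.12%), and 0 members in enterocyte-like (4.48%) and goblet-like cells (1.68%). *Slc30a1* had too few counts for a test in 3 of the 5, the stem cell-like and the goblet-like cells and cluster 1.

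**Figure D3:**
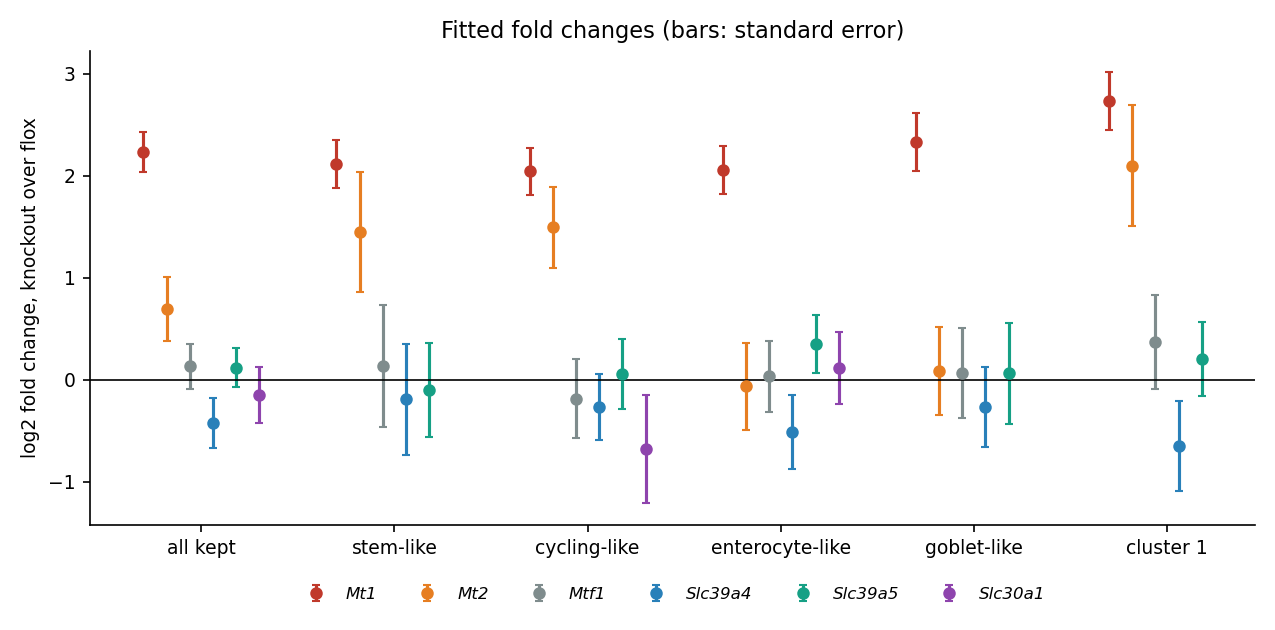
Fitted log2 fold change, knockout over flox, of each gene in all kept cells, in 4 classes and in cluster 1 (points) with its standard error (bars), from sums of 2 biological replicates per genotype. *Mt1* lies between 2.05 and 2.73 throughout, *Mt2* between -0.06 and 2.10, and the transporters and *Mtf1* between -0.68 and 0.37.

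*Mt1* was detected in a larger share of knockout cells. At least 1 *Mt1* molecule was counted in 66.8%, 61.3% and 65.1% of kept knockout cells and in 26.0%, 25.2% and 31.2% of kept flox cells. With each cell thinned to 500 molecules, which leaves out 175 knockout and 112 flox cells, the shares were 40.2%, 36.6% and 39.7% in knockout and 8.94%, 9.01% and 11.3% in flox. Thinned cells with at least 2 *Mt1* molecules made up 12.8% in knockout and 1.28% in flox. The 10% of cells with most *Mt1* held 48.1%, 49.2% and 57.5% of its counts in knockout and 74.7%, 70.6% and 64.3% in flox, a lower share in each knockout collection. The richest single cell held 2.46% to 2.69% of a knockout collection's *Mt1* counts and 2.73% to 7.39% of a flox collection's. Shares of both kinds rise as counts per cell fall, and cells were not thinned for them. They therefore carry the *Mt1* level itself and do not show separately how *Mt1* is spread over cells.

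By class, thinned enterocyte-like cells had *Mt1* in 67.7%, 66.2% and 76.7% of cells in knockout and in 17.2%, 23.8% and 22.0% in flox. Stem cell-like cells had it in 37.7%, 29.2% and 35.8% in knockout and in 8.65%, 10.4% and 9.46% in flox. In immune cells it was found in 10 of 140 thinned knockout cells (7.14%, exact 95% interval 3.48% to 12.7%). Of 186 thinned flox immune cells, 1 had it (0.538%, 0.0136% to 2.96%). Whether these molecules came from free RNA, from doublets or from the immune cells themselves was not tested. Immune cells had median depths of 687 counts in knockout and 743 in flox, and the epithelial cells 1276 and 1457. The intervals cover counting error only. Thinning left out 4 knockout and 2 flox enterocyte-like cells, 67 and 37 stem cell-like cells and 27 and 32 immune cells. Without thinning the shares were 91.8% in knockout and 47.1% in flox for enterocyte-like cells, 54.7% and 20.1% for stem cell-like cells, and 10.8% and 1.38% for immune cells.

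**Figure D4:**
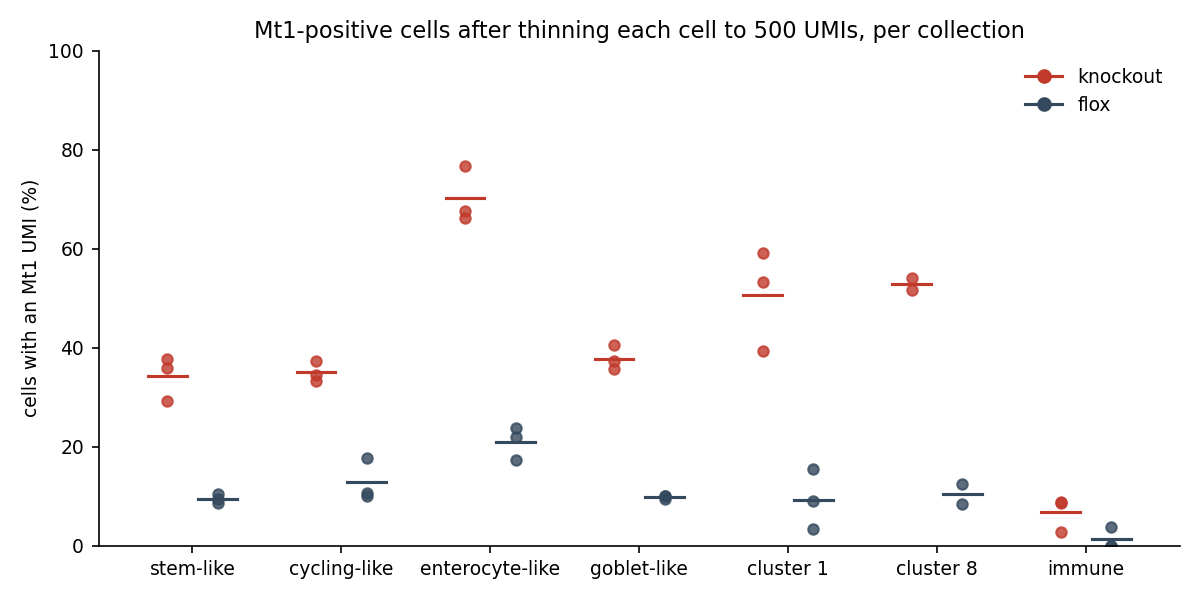
Share of cells with at least 1 *Mt1* molecule (vertical axis, percent) after thinning each cell to 500 molecules, by class or cluster, for knockout (left) and flox (right) collections with at least 20 cells after thinning (points) and their mean (bars). In each epithelial class or cluster shown the knockout collections lie above the flox collections, and immune cells have the lowest mean of each genotype. Single points overlap, as immune cells of flox collection 3 (3.85%) lie above cluster 1 of flox collection 2 (3.33%).

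The other genes were then read in single cells with and without *Mt1*. Of thinned knockout enterocyte-like cells, 178 had *Mt1* and 75 did not. *Slc39a5* was found in 7.30% of cells with *Mt1* (exact 95% interval 3.95% to 12.2%) and 2.67% of those without (0.325% to 9.30%), and *Slc39a4* in 10 of 178 and 3 of 75. *Slc30a1* was found in 8 of 178 cells with *Mt1* and 6 of 75 without, and *Mt2* in 7 of 178 and 4 of 75. The exact 95% intervals overlapped for each of these genes. Of flox enterocyte-like cells, 56 had *Mt1* and 220 did not, and *Mt2* was found in 17.9% of the cells with it (8.91% to 30.4%) and in 3.64% of those without (1.58% to 7.04%). There the pooled intervals did not overlap, but they join the cells of 3 collections and cover counting error only. By flox collection *Mt2* was found in 4 of 20, 2 of 10 and 4 of 26 cells with *Mt1*, and in 0 of 96, 0 of 32 and 8 of 92 without. In flox collection 1 the intervals did not overlap (5.73% to 43.7% with *Mt1* and 0% to 3.77% without). They overlapped in flox collection 2 (2.52% to 55.6% with *Mt1* and 0% to 10.9% without). In flox collection 3 they overlapped as well (4.36% to 34.9% with *Mt1* and 3.83% to 16.4% without). The importers did not share that direction in flox, with *Slc39a4* in 3 of 56 cells with *Mt1* and 19 of 220 without, and *Slc39a5* in 2 of 56 and 14 of 220. The exporter *Slc30a1* did share it, with 5 of 56 and 10 of 220, and its intervals overlapped (2.96% to 19.6% and 2.20% to 8.20%). *Mtf1* was found in 1 of 56 and 6 of 220 flox cells, and in 8 of 178 and 2 of 75 knockout cells. In stem cell-like cells detection was too sparse to compare. *Mt2* was found there in 3 of 175 knockout cells with *Mt1* and 7 of 332 without, and in 0 of 49 and 5 of 477 flox cells, and *Slc39a5* in 0 of 175 and 7 of 332 knockout cells. Cells of a collection are not replicates, so no test was made. Whether intervals over cells overlap or not is therefore a description and no test.

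Across the 34 sums of class and collection with at least 20 cells, *Mt1* correlated weakly with the other members when both genotypes were pooled. Pearson's r of log2 CPM was 0.38 with *Mt2*, 0.33 with *Slc39a5*, 0.14 with *Slc39a4*, -0.11 with *Slc30a1* and -0.13 with *Mtf1*. Pooling adds the genotype difference of *Mt1* to its variation. Within knockout (18 sums) the r of *Mt1* lay between -0.33 (*Mtf1*) and 0.23 (*Mt2*), and within flox (16 sums) between -0.16 (*Mtf1*) and 0.57 (*Slc39a4*). Between *Slc30a1* and *Mtf1* it was 0.75 within knockout and 0.69 within flox. Sums of a collection share its library, and those of a class its depth, so these are descriptions. The prior count of 2 lifts low genes most in shallow sums, such as those of immune cells, so r also carries depth. Of 5797 named genes with a mean of at least 20 CPM, with both genotypes pooled, the most like *Mt1* were *Tmem54* (r = 0.82), *Cldn7* (0.81), a tight junction claudin, and *Bsg* (0.80), the membrane protein basigin. The most like *Slc30a1* were *Dpyd* (0.91), of pyrimidine breakdown, *Adh1* (0.90), an alcohol dehydrogenase, and *Exoc3l4* (0.90). For *Mt2* they were *Flrt3* (0.78), *Cdhr5* (0.77), a brush border protocadherin, and *Pepd* (0.76), a dipeptidase. *Slc39a4* was closest to *Gstm3* (0.78), *Cdhr2* (0.78) and *Abcg5* (0.77), *Slc39a5* to *Rab17* (0.79), *Dok4* (0.77) and *Tgfbi* (0.76), and *Mtf1* to *March6* (0.83), *Jak2* (0.81) and *Spag9* (0.81).

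No other zinc transporter passed the test. Over all 10555 genes tested, 5304 were higher and 5251 lower in knockout. The 1 gene that passed was *Mt1*, which was chosen by this same difference, so its passing is no test of it. A count of 0 passing therefore holds for any list without *Mt1*, here and in the lists below, and sets none of them apart. Of 11 zinc importers tested, 5 were higher and 6 lower in knockout, 0 passed, and the median log2 fold change was -0.01, against 0.00 over all genes tested. The most abundant were the 2 members and *Slc39a14* (40.5 CPM in knockout and 34.2 CPM in flox), which encodes the ZIP14 importer. Of 7 zinc exporters tested, 2 were higher and 5 lower, 0 passed, and the median was -0.13. Besides *Slc30a1* the most abundant were *Slc30a5* (38.0 CPM in knockout, against 41.8 CPM in flox) and *Slc30a9* (34.0 and 35.6 CPM). The largest values among transporters were 1.01 (SE 0.55) for *Slc39a6* from 45 counts, 0.66 (SE 0.35) for *Slc30a2* and 0.63 (SE 0.50) for *Slc39a13*. These 3 were named after their values were seen, and none passed.

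MTF-1 targets other than *Mt1* numbered 7 tested, of which 4 were higher, 3 lower and 0 passed, with a median of 0.15. *Sepw1*, a selenoprotein gene, had 66.1 CPM in knockout, against 53.4 CPM in flox, and *Ndrg1*, a stress-responsive gene, had 51.8 CPM in knockout, against 52.6 CPM in flox. Of the metallothionein family, *Mt3* had 9 counts in all and was too low to be tested. The 10 copper genes tested had a median of 0.13, with 8 higher, 2 lower and 0 passing. The most abundant were *Sod1* (452 CPM in knockout and 410 CPM in flox), *Atox1* (247 and 245 CPM) and *Cox17* (225 and 172 CPM). The 9 iron genes had a median of 0.11, with 6 higher, 3 lower and 0 passing, led by the ferritins *Fth1* (2056 CPM in knockout, against 1932 CPM in flox) and *Ftl1* (678 and 669 CPM) and the transferrin receptor *Tfrc* (222 and 204 CPM).

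Glucocorticoids and oxidative stress are also known to induce metallothionein genes, and tissue dissociation is known to induce stress genes. Of 7 glucocorticoid-responsive genes tested, 2 were higher, 5 lower and 0 passed (median -0.08), with *Nr3c1*, the receptor, at 139 CPM in knockout, against 175 CPM in flox, *Klf9*, a receptor target, at 92.8 and 119.6 CPM, and *Dusp1*, a phosphatase gene, at 86.7 and 88.8 CPM. Of 8 NRF2 genes, 3 were higher, 5 lower and 0 passed (median -0.05), with *Prdx1*, a peroxiredoxin, at 1053 CPM in knockout, against 1149 CPM in flox, *Txnrd1*, a thioredoxin reductase, at 252 and 276 CPM, and *Nfe2l2*, NRF2 itself, at 258 and 240.4 CPM. Of 20 dissociation stress genes, 12 were higher, 8 lower and 0 passed (median 0.09). *Jun* had 985 CPM in knockout, against 961 CPM in flox, and the chaperone genes *Hsp90aa1* and *Hspa8* had 2163 and 1292 CPM in knockout, against 2083 and 1200 CPM in flox. The heat shock genes *Hspa1a* and *Hspa1b*, named after their values were seen, had the highest fold changes of that list. *Hspa1a* had 141, 179 and 377 CPM in knockout and 116, 189 and 129 CPM in flox, with a log2 fold change of 1.05 (SE 0.29, adjusted p = 0.9996, edgeR), and *Hspa1b* had 119, 118 and 259 CPM in knockout and 102, 77.8 and 96.6 CPM in flox. Knockout collection 3 was the highest for both, as it was for *Mt1* and *Mt2*. Their part in the metallothionein values was not tested. At an unadjusted p under 0.05, the genes of the lists other than *Mt1* were *Hspa1a*, *Hspa1b* and *Mt2* (edgeR).

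**Figure D5:**
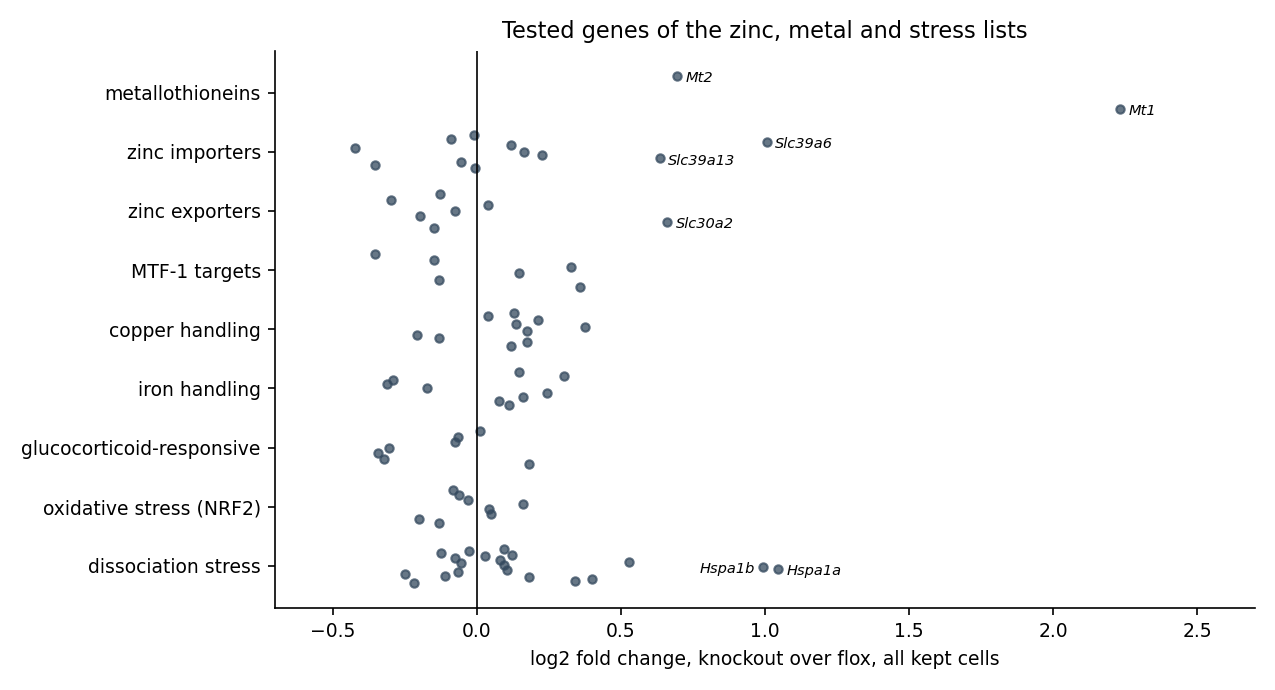
Fitted log2 fold change, knockout over flox, in all kept cells (horizontal axis) of the tested genes of each list (rows, 1 point per gene, *Mt1* and *Mt2* shown once). *Mt1* at 2.23 lies outside the spread of the zinc, copper, iron and stress genes, of which the highest is *Hspa1a* at 1.05.

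Genes around *Mt1* on chromosome 8 did not pass either, as was so for every gene tested other than *Mt1*. Within 500 kb, 13 annotated genes were tested, and the 11 other than *Mt1* and *Mt2* had log2 fold changes between -0.33 (*Nudt21*) and 1.20 (*Gnao1*, 40 counts), of which 0 passed. The nearest of them, *Nup93*, had 0.07 (SE 0.30), and *Herpud1*, 744 counts, had 0.04 (SE 0.19). *Nudt21*, *Gnao1* and *Herpud1* were named after their values were seen.

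Enterocyte markers, taken as a sum, were higher in knockout collections. The summed level of all 22 enterocyte markers was 9911 to 12260 CPM in knockout and 8420 to 9152 CPM in flox. Of B or plasma cell markers 11 of 13 were in the tables, with 977 to 2116 CPM in knockout, against 1161 to 1572 CPM in flox, and of T or NK cell markers 13 of 14, with 375 to 889 and 313 to 1644 CPM. All 14 Paneth cell markers had 2681 to 6475 CPM in knockout and 4489 to 8028 CPM in flox. The enterocyte marker sums did not overlap between genotypes, and 2.47% of single genes tested also had all knockout collections above all flox collections. Enterocyte-like cells numbered 99 of 754, 72 of 703 and 86 of 981 kept cells in knockout. In flox they numbered 117 of 1053, 43 of 473 and 118 of 926, and as shares the genotypes overlapped. The part of the marker sums in the *Mt1* level of all cells was not tested. The *Mt1* ratio within enterocyte-like cells was 4.15, and within stem cell-like cells 4.09.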

How the data were processed

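Drop-seq libraries of 6 collections were analysed, 3 per genotype. The authors deposited raw counts by gene and barcode, not normalized, taken here as molecules (UMIs), with 1228337 to 3146909 counts per collection. Alignment used STAR 2.6 and mm10, per the submitters' processing notes. Members and lists were chosen with earlier results of these data known. The genes named are the 6 members, members of a list that passed or otherwise the 3 of highest mean CPM, and the 3 genes most like each member. Others are named with the remark that their values had been seen.

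Cells were clustered on 2000 variable genes without mitochondrial genes and the 6 members (30 components, 15 neighbours, Leiden resolution 1.0, leidenalg 0.10.2, scikit-learn 1.9.0). A cluster was named when at least 3 fixed markers were enriched 1.5-fold in at least 10% of its cells, and made up 50% of the list or held 2 of the top 10 genes. Doublets were left in. Each sum joined the counts of 1 class in 1 biological replicate, with at least 20 cells per sum, and the sums were tested with edgeR 4.0.16 (quasi-likelihood, TMM, filterByExpr at 10 counts, Benjamini-Hochberg over all genes, threshold 0.05). Nothing in the labels states that the collections of a replicate come from 1 mouse, so p-values measure the spread between these sums. CPM and shares are given per collection with at least 10 cells. The test was checked on simulated data. Symbols matched GENCODE vM21 for 17963 of 19178 genes. DESeq2 1.42.0 and other filters, clusterings and sample sets were alternatives.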

Additional observations from a re-analysis of the deposited data

Results flagged for a closer look

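*Slc30a1* in all kept cells went opposite ways in the biological replicates, whose sex is read from *Xist*. In replicate 1 (male) both knockout collections lay below both flox collections, with a log2 ratio of mean levels of -0.57. In replicate 2 (female) the single knockout collection lay above the single flox collection, at 0.25. The difference between the replicates was not tested.

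*Mt1* was also found in barcodes with fewer than 100 counts, which entered no comparison and can hold free RNA in place of cells. It had 503 CPM in 1504 such knockout barcodes (56 counts, exact 95% Poisson interval 380 to 653) and 171 CPM in 2259 such flox barcodes (21 counts, 106 to 262). By collection it had 439, 584 and 832 CPM in knockout, the last from 29 barcodes, and 0, 171 and 185 CPM in flox, the first from 14 barcodes.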

How the results depend on the processing

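Alternatives numbered 411 over 24 results, and 386 of them stayed on the same side of the threshold or within the replicate spread. The *Mt1* log2 fold change in all kept cells stayed between 2.08 and 2.39 under all 21. It moved past the replicate spread in stem cell-like cells within set 1 (1.92) and set 2 (2.25), in cycling-like cells within set 1 (1.61) and at Leiden resolution 1.5 (1.82), and in goblet-like cells within set 1 (1.84) and set 2 (2.79). Leaving out single collections or replicates gave 1.72 to 2.49 in enterocyte-like and 2.01 to 2.79 in goblet-like cells. The sets and the test of cluster 1 were chosen after seeing the data. Of members other than *Mt1*, 1 passed, *Mt2*, with no filter in cycling-like cells and cluster 1, and within set 2 in cycling-like cells. Leaving out collections or replicates gave 0 to 1 such members in cycling-like cells and 0 to 2 in cluster 1, highest (*Mt2* and *Slc39a4*) without knockout biological replicate 1. With the biological replicate as a block 1 member, *Mt2*, passed in cluster 1 (adjusted p = 0.00413, edgeR), and likewise with the collection number as a block (0.0271). Over all genes 1 passed in all kept cells, 3 with the biological block and 35 with no filter. Deviations of same-numbered collections correlated at r = -0.11, 0.03 and 0.35, and 0.35 was the highest between any knockout and flox collection. No label states that equal numbers share an animal, litter or day. By *Xist*, biological replicate 1 was male and replicate 2 female in both genotypes, so the biological block also matches sex. The direction reversed for members that had not passed. *Mt2* was at -0.047 within set 1 and -0.068 to 1.20 with samples left out, lowest without knockout collection 3. *Mtf1* was at -0.13 within set 2 and -0.026 to 0.30 with samples left out, lowest without knockout collection 1. *Slc30a1* was at 0.043 within set 2 and -0.53 to 0.16 with samples left out, highest without knockout biological replicate 1. The *Slc30a1* class ratio was 2.86 at a prior count of 0.5. The share of cells with *Mt1* differed by 29.1 percentage points at 500 molecules, 17.4 at 250 and 43.7 at 1000. Thinning to fewer molecules lowers detection in both genotypes, and each depth leaves out the cells below it. The mean shares in knockout and flox were 22.4% and 5.02% at 250 molecules, 38.8% and 9.75% at 500, and 63.65% and 19.92% at 1000. At Leiden resolution 0.6 or with the 6 genes among the variable genes, no cluster was named cycling-like, so that class has no value there. A cluster rich in cycling markers (679 and 649 cells) was named stem cell-like in these settings. Their stem cell-like values therefore cover partly other cells than the main ones. The 246 counts of *Slc30a1* and 663 of *Mt2* limit what single classes can show.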

Other observations

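*Slc39a4* had few counts in the unnamed clusters 6 and 8, and fewer in knockout than in flox. Cluster 6 had 0, 0 and 6.36 CPM in knockout (1 count) and 20.9, 35.7 and 24.9 CPM in flox (7 counts), and cluster 8 had 2 counts in knockout and 9 in flox. *Mt1* in Paneth-like cells, of which there were 27, came to 4 counts in knockout and 1 in flox. These clusters were not tested.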
